A study of Homo sapiens with 9 samples.

Results

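The genes described here are 9 proteins of noncanonical Wnt signalling: the ligands WNT5A and WNT5B, the Frizzled receptors FZD2 and FZD7, the receptor tyrosine kinase family members ROR1, ROR2, RYK and PTK7, and the planar cell polarity protein VANGL1. They were measured in SW1783 cells, an established human glioma line, on 9 Affymetrix arrays. All 3 groups were transfected with 50 nM of a synthetic miRNA duplex and harvested after 24 h, with 3 biological replicates each. The duplex was miR-control in the first group, miR-376a*A in the next and miR-376a*G in the last. No untransfected cells were among the samples, so every comparison is between transfected samples of 1 line. The set was built around ROR1, which was chosen by its array signals in these data, low with miR-376a*G both against miR-control and against miR-376a*A. The other genes were added as its pathway partners with results of all 3 comparisons known. The ROR1 values of those 2 comparisons are therefore given as a description, with no test.

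All probe sets annotated to 1 of these genes alone were taken, 22 of the 54675 on the array (a probe set is a group of short probes read as 1 signal). ROR1 has 3, WNT5A 2, WNT5B 3, FZD2 2, FZD7 2, RYK 3, PTK7 2, VANGL1 4 and ROR2 1. A level filter at the 50th percentile of all probe sets left 19 of the 22. It kept 8 of the 9 genes, among 12505 genes tested of 19775 with a probe set of their own. ROR2 did not pass. Each gene was represented by its brightest probe set and all remaining probe sets were also compared singly.

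Wnt proteins are secreted lipid-modified ligands. In the canonical pathway they bind Frizzled and LRP receptors and stabilise beta-catenin. In the noncanonical branch WNT5A acts through Frizzled receptors together with ROR1, ROR2, RYK or PTK7, and signals through JNK and calcium, among others, to shape cell polarity and movement. ROR1 is low in most adult tissues and is expressed in several tumour types, and WNT5A has been linked to the invasive behaviour of glioma cells.

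The name miR-376a* is an older one for the 5′ arm of a miR-376a hairpin, of which the genome holds more than 1. The labels do not say which was used, and the arm that RefSeq names hsa-miR-376a-5p, of gene MIR376A1, is taken here. By background knowledge the 2 forms differ at a single base of the seed, the stretch at bases 2 to 8 that pairs with target transcripts: the unedited form has A there, and the other has G, which pairs as the inosine left by A-to-I editing does. The RefSeq sequence of this arm (GRCh38.p14, chr14:101040788-101040809, + strand) is shown, with its seed in capitals, since the forms compared are named for a base of the seed.
hsa-miR-376a-5p: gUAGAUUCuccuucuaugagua
In this sequence the seed holds 2 adenosines, at bases 3 and 5 from the 5′ end, and none of the other mature human miRNAs in that table (2370 names in all) has the same seed. The edited form is not printed, since the sources used here do not hold its sequence.

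The deposited signals had medians of 18.8 to 24.0 on the single arrays. Control replicate 1 was unlike the rest: its closest array was at a rank correlation of 0.941, while each of the others had a partner at 0.969 to 0.970. Values against control that move by over 1.5 times without it are also given without it. Markers of the labelled cell type were mixed: 8 of 14 astrocytic and glioma-line markers passed the filter. VIM (signal of 2218 to 4401), CD44, EGFR, SOX9, PDGFRA (102 to 315), SLC1A3 (91.5 to 124), ALDH1L1 and SOX2 passed, while GFAP (1.30 to 3.75), S100B, OLIG2, AQP4, FABP7 and NES did not. All 8 mesenchymal markers passed the filter, FN1 and COL1A1 among them. Of the epithelial markers 1 of 6 passed (KRT14, 28.7 to 52.0), of the leukocyte markers 1 of 5 (CSF1R, 21.2 to 36.5) and of the endothelial markers 2 of 4 (PECAM1 and KDR), while EPCAM and PTPRC did not. Neuronal markers passed in 4 of 5 cases, SNAP25 (138 to 432) and SYT1 (194 to 593) among them.

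ROR1, a receptor-like kinase that binds WNT5A, was about 4-fold lower in cells given miR-376a*G than in control cells by 2 of its 3 probe sets. By these it was lower on all 3 arrays. By the brightest probe set, 232060_at, signals were 84.0, 139 and 205 in control replicates 1, 2 and 3. The miR-376a*A arrays gave 144, 122 and 103, those of miR-376a*G 29.0, 32.9 and 48.9. The 3 miR-376a*G arrays lay below all 6 others, while control and miR-376a*A arrays overlapped, the controls spreading from the lowest to the highest value of the 6. Mean signal was 143 ± 60.7 (SD, n = 3) in control cells, 123 ± 20.3 under miR-376a*A and 36.9 ± 10.5 under miR-376a*G. The log2 difference of miR-376a*G from control was -1.50 (SE 0.25), and miR-376a*A lay above miR-376a*G by 1.38 (SE 0.25). ROR1 was chosen for its low signal with miR-376a*G, so its rank of 7 from the lowest among 12505 genes is a description only. The difference from control was -1.79 (SE 0.18) without control replicate 1, the lowest control.

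The second ROR1 probe set, 205805_s_at, gave the same picture with less spread. Its signals were 123, 132 and 148 in control replicates 1, 2 and 3, then 97.3, 114 and 103 with miR-376a*A, and 29.5, 34.2 and 36.2 with miR-376a*G. The groups did not overlap and ran in the order control, miR-376a*A, miR-376a*G, with means of 134 ± 12.9, 105 ± 8.75 and 33.3 ± 3.44 (SD, n = 3). The deposited means were 4.03-fold apart between control and miR-376a*G and 3.15-fold apart between the 2 forms of the miRNA. On the log2 scale these differences were -1.59 (SE 0.11) and 1.27 (SE 0.11). The smaller step from control to miR-376a*A, -0.32 (SE 0.11), did not pass limma's test over all probe sets (adjusted p = 0.213), although all 3 miR-376a*A arrays lay below all controls.

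The third ROR1 probe set, 211057_at, disagreed with the other 2. Its signals were 29.3, 35.1 and 34.0 in control replicates 1, 2 and 3. They were 34.6, 22.1 and 37.0 on the miR-376a*A arrays, against 34.9, 37.6 and 27.7 on those of miR-376a*G. The groups overlapped throughout, with a log2 difference of 0.09 (SE 0.16) between miR-376a*G and control and of -0.07 (SE 0.16) between miR-376a*A and miR-376a*G. Without control replicate 1 the difference of miR-376a*G from control was -0.00054 (SE 0.16). This probe set was the dimmest of the 3, at the 59.0th percentile of all probe sets, against the 73.9th for 232060_at and the 72.8th for 205805_s_at. The annotation gives each of the 3 a transcript record of its own, and whether it reports the same transcript was not tested.

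**Figure D1:**
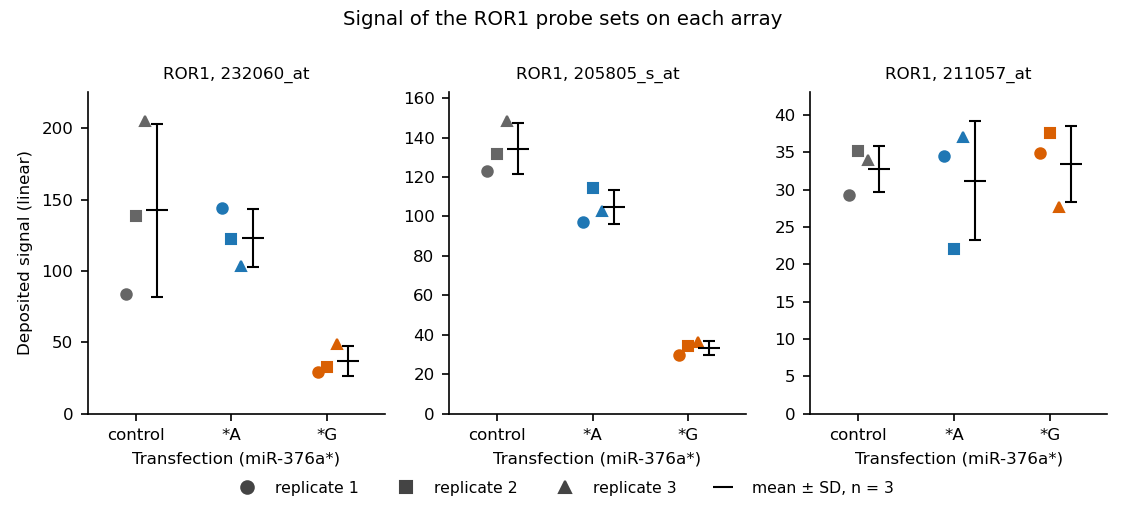
Deposited linear signal (vertical axis, from 0) of the 3 ROR1 probe sets on each array, by transfection (horizontal axis); symbols are replicates and black bars the mean ± SD of 3 arrays. With 232060_at and 205805_s_at the miR-376a*G arrays lie at 29.0 to 48.9, below all others, whereas with 211057_at the groups overlap between 22.1 and 37.6.

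The comparison of miR-376a*A with control gave ROR1 a log2 difference of -0.11 (SE 0.25) by the brightest probe set, which did not pass (limma adjusted p = 0.886). The value depended on single controls: it was 0.14 without control replicate 3 and -0.39 without control replicate 1 (limma adjusted p = 0.744 and 0.186). By 205805_s_at it stayed below 0 in all 19 alternatives, between -0.37 and -0.24, and passed in none of them.

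WNT5A, the main noncanonical ligand, had higher signals with both miRNA forms than in control cells, but neither difference passed limma's test with all 9 arrays. By the brightest probe set, 205990_s_at, control replicates 1, 2 and 3 gave 351, 567 and 555. The 3 arrays gave 714, 700 and 729 with miR-376a*A and 645, 655 and 690 with miR-376a*G. Every treated array lay above every control, the miR-376a*A arrays lay above the miR-376a*G arrays, and control replicate 1 was far below the other controls. Means were 491 ± 122, 714 ± 14.7 and 663 ± 23.4 (SD, n = 3) in the order control, miR-376a*A, miR-376a*G. The log2 difference from control was 0.51 (SE 0.14, limma adjusted p = 0.101) with miR-376a*A and 0.42 (SE 0.14, limma adjusted p = 0.150) with miR-376a*G.

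The second WNT5A probe set, 213425_at, had the same order of groups and a wider gap. Its signals were 101, 250 and 252 in control replicates 1, 2 and 3, then 427, 394 and 354 with miR-376a*A, and 330, 336 and 351 with miR-376a*G. The groups again did not overlap, and control replicate 1 was again the lowest array. The log2 differences from control were 1.00 (SE 0.25) with miR-376a*A and 0.79 (SE 0.25) with miR-376a*G, with limma adjusted p over all probe sets of 0.0737 and 0.133. Between the 2 forms WNT5A differed by 0.09 (SE 0.14) and 0.21 (SE 0.25) by the 2 probe sets, neither past the test (limma adjusted p = 0.987 and 0.968 over probe sets).

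Without control replicate 1 the WNT5A differences were smaller and passed. By 205990_s_at they became 0.31 (SE 0.07, limma adjusted p = 0.00967) with miR-376a*A and 0.22 (SE 0.07, limma adjusted p = 0.0397) with miR-376a*G. By 213425_at they became 0.63 and 0.42, with limma adjusted p over probe sets of 0.00142 and 0.0119. Without this array 13.5% of all genes passed for miR-376a*A and 17.3% for miR-376a*G, so a pass was then common.

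FZD7, a Frizzled receptor that takes part in both Wnt branches, also had higher signals with the 2 miRNA forms. By the brightest probe set, 203705_s_at, control replicates 1, 2 and 3 gave 263, 224 and 229. With miR-376a*A the arrays gave 301, 303 and 301, all above the controls, and with miR-376a*G 308, 253 and 279, overlapping them. The log2 differences were 0.31 (SE 0.12, limma adjusted p = 0.273) and 0.19 (SE 0.12, limma adjusted p = 0.487), neither past the threshold.

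By 203706_s_at the FZD7 signals were 75.4, 111 and 106 in control replicates 1, 2 and 3. They were 153, 142 and 142 with miR-376a*A and 145, 151 and 154 with miR-376a*G, all above the controls. In the fit over all probe sets this one rose with miR-376a*G (0.57, SE 0.13, limma adjusted p = 0.0418), beside 3.44% of all probe sets, and lay at 0.54 with miR-376a*A (SE 0.13, limma adjusted p = 0.0656). Averaging both probe sets gave FZD7 a rise of 0.42 under miR-376a*A and 0.38 under miR-376a*G (limma adjusted p = 0.0145 and 0.0206), where 3.67% and 5.23% of all genes passed. Without control replicate 1 the brightest probe set passed too, at 0.42 under miR-376a*A and 0.30 under miR-376a*G (limma adjusted p = 0.0108 and 0.0423). Of all genes, 13.5% and 17.3% passed without that array.

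**Figure D2:**
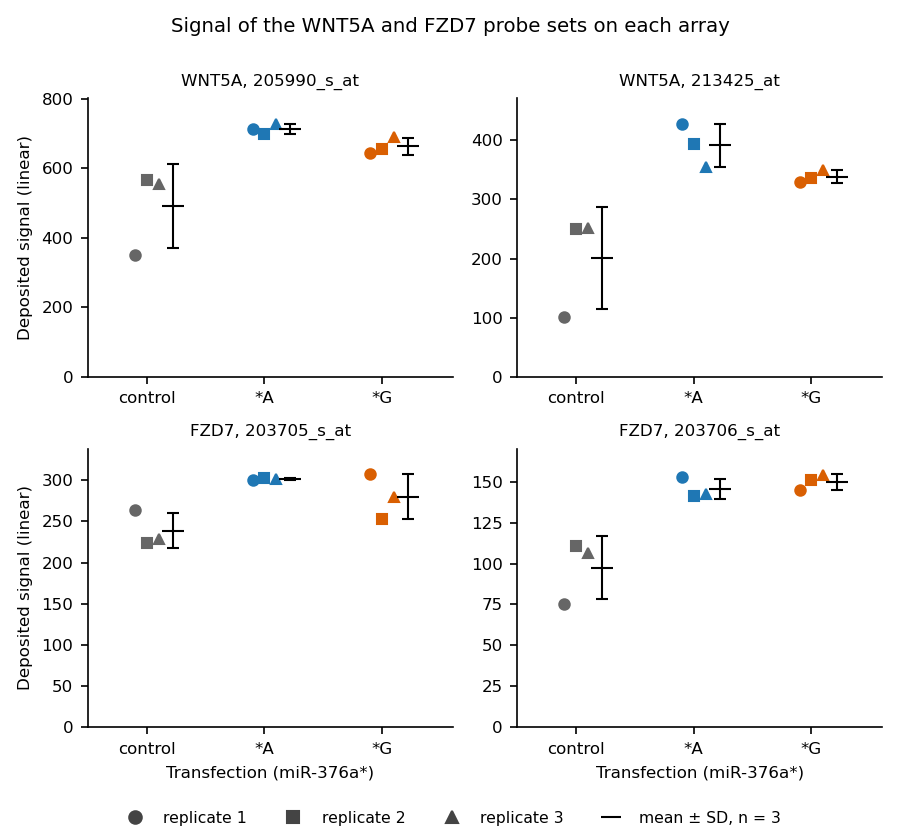
Deposited linear signal (vertical axis, from 0) of both WNT5A and both FZD7 probe sets on each array, by transfection (horizontal axis); symbols are replicates and black bars the mean ± SD of 3 arrays. Control replicate 1 lies lowest for both WNT5A probe sets (351 and 101) and for 203706_s_at of FZD7 (75.4), but highest of the controls for 203705_s_at (263).

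WNT5B, a close relative of WNT5A, did not follow it, and its probe sets disagreed. By the brightest, 221029_s_at, signals were 122, 110 and 133 in control replicates 1, 2 and 3. The miR-376a*A arrays gave 111, 65.2 and 123, the miR-376a*G arrays 59.8, 109 and 78.2. The miR-376a*G arrays lay below the controls, by as little as 109.3 against 109.5, and the difference of -0.51 (SE 0.22) did not pass (limma adjusted p = 0.271). With miR-376a*A the arrays overlapped the controls (-0.28, SE 0.22, limma adjusted p = 0.630).

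The second WNT5B probe set, 223537_s_at, pointed upwards with miR-376a*G. Its signals were 44.4, 28.4 and 23.7 in control replicates 1, 2 and 3, against 41.4, 41.2 and 38.2 with miR-376a*G and 26.9, 36.0 and 33.3 with miR-376a*A. The miR-376a*G arrays lay above those of miR-376a*A and overlapped the controls. The difference of miR-376a*G from control was 0.30 (SE 0.15, limma adjusted p = 0.356). Without control replicate 1, here the highest control, it was 0.46 and passed (limma adjusted p = 0.0385 over probe sets). Of all genes, 17.3% passed without that array. With miR-376a*A the difference from control was 0.08, and 0.22 without that array (limma adjusted p = 0.877 and 0.298 over probe sets). The third WNT5B probe set, 230299_s_at, was below the filter, with signals of 2.68 to 15.3.

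FZD2, a Frizzled receptor for WNT5A, lay within the spread of its replicates in all 3 comparisons. By 210220_at its mean signal was 224 ± 27.2 in control cells, 235 ± 9.61 under miR-376a*A and 234 ± 8.82 under miR-376a*G (SD, n = 3). The log2 differences from control were 0.06 and 0.05 (SE 0.13 each, limma adjusted p = 0.877 and 0.899). They were 0.18 and 0.17 without control replicate 1, again not past the test (limma adjusted p = 0.227 and 0.254). The dimmer probe set, 238129_s_at, gave -0.11 and -0.08, and 0.0035 and 0.037 without control replicate 1.

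RYK, a Wnt receptor whose kinase domain is thought to be inactive, differed little as well. By 202853_s_at the mean was 242 ± 55.2 in control cells, with replicate 1 at 181 and the others at 258 and 288, against 233 ± 13.7 under miR-376a*A and 241 ± 12.7 under miR-376a*G (SD, n = 3). The log2 differences from control were -0.05 and -0.01 (SE 0.13 each, limma adjusted p = 0.911 and 0.979). They were -0.195 and -0.16 without control replicate 1, the lowest control, neither past the test. By 214172_x_at the treated arrays, at 167 to 198, all lay below the controls, at 200 to 222, with differences of -0.20 and -0.21 that did not pass (SE 0.12 each; limma adjusted p = 0.517 and 0.420 over probe sets). Without control replicate 1 the differences by 214172_x_at were -0.11 and -0.13 (limma adjusted p = 0.493 and 0.425 over probe sets). The third RYK probe set, 216976_s_at, overlapped between all groups.

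PTK7, a catalytically inactive receptor kinase of planar cell polarity, had overlapping arrays in all 3 comparisons. Its mean by 207011_s_at was 172 ± 17.3 in control cells, 198 ± 29.0 under miR-376a*A and 197 ± 21.2 under miR-376a*G (SD, n = 3). The log2 differences from control were 0.17 and 0.16 (SE 0.15 each, limma adjusted p = 0.664 and 0.627). Leaving out control replicate 1, the highest control, made them 0.29 and 0.28 (limma adjusted p = 0.147 and 0.139). The other PTK7 probe set, 1555324_at, was below the filter at signals of 5.03 to 13.5.

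ROR2, the nearest relative of ROR1 and a WNT5A receptor, was near the bottom of the range, with signals between 1.95 and 11.7 on all arrays for 205578_at. Its mean lay at the 28.7th percentile of all probe sets, so no test was made and no change of ROR2 could be measured here.

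VANGL1, a membrane protein of the planar cell polarity core, had 4 probe sets past the filter. The brightest, 229997_at, gave means of 124 ± 16.6 in control cells, 141 ± 12.0 under miR-376a*A and 131 ± 16.1 under miR-376a*G (SD, n = 3), with overlapping arrays. The log2 differences from control were 0.16 and 0.06 (SE 0.12 each, limma adjusted p = 0.593 and 0.849), and 0.11 and 0.0038 without control replicate 1 (limma adjusted p = 0.549 and 0.987). By 219330_at the controls, at 72.8, 73.6 and 95.6, lay below the miR-376a*A arrays, at 114, 108 and 91.6, on the normalized scale only, since on the deposited scale the ranges meet. With miR-376a*G the arrays were at 94.2, 104 and 96.6, with the same reservation. The differences of 0.35 and 0.27 did not pass (SE 0.12 each, limma adjusted p = 0.212 and 0.302 over probe sets). The other 2 VANGL1 probe sets overlapped between all groups.

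**Figure D3:**
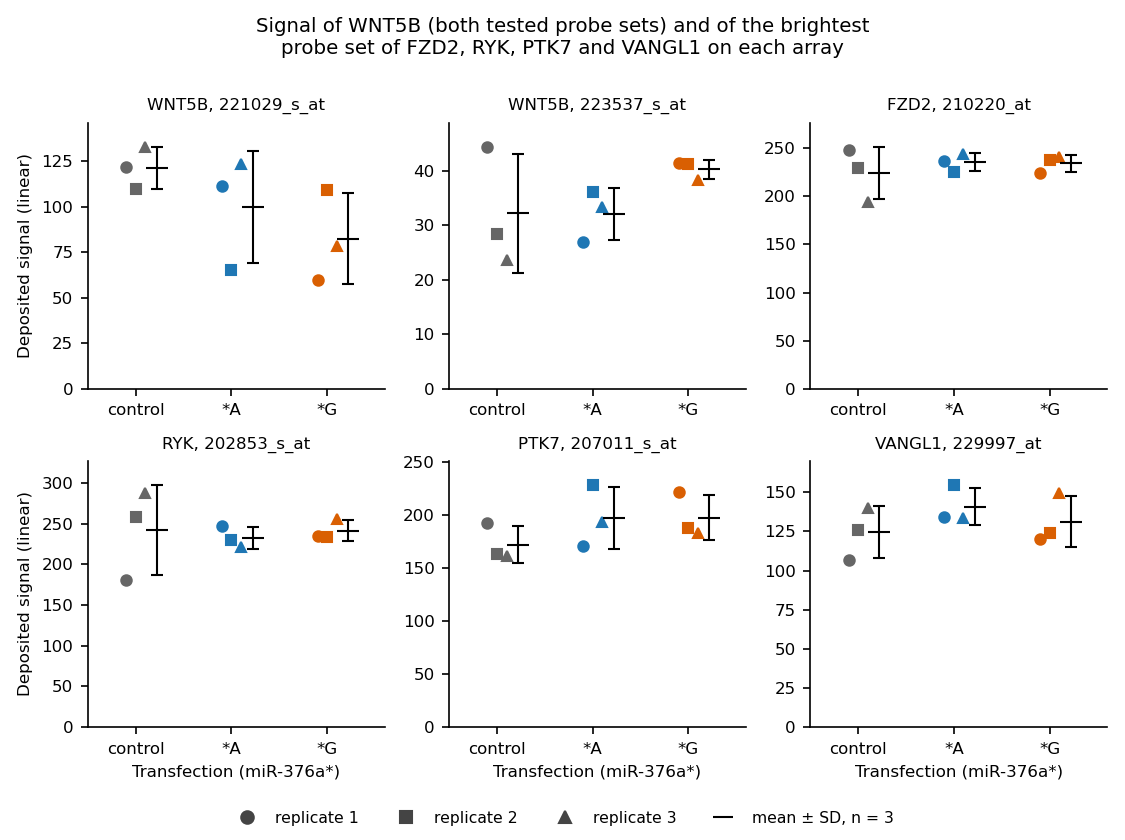
Deposited linear signal (vertical axis, from 0) of both tested WNT5B probe sets and the brightest probe set of FZD2, RYK, PTK7 and VANGL1 on each array, by transfection (horizontal axis); symbols are replicates and black bars the mean ± SD of 3 arrays. The treated arrays overlap the controls in each panel, except that the miR-376a*G arrays of WNT5B probe set 221029_s_at lie just below them, and for 223537_s_at the miR-376a*G arrays lie above those of miR-376a*A.

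ROR1 aside, 0 of the 7 other genes passed limma's test over all genes with miR-376a*G against control, where 4.62% of all genes passed. WNT5A and WNT5B were the 2 with an unadjusted p under 0.05. Blocking on the replicate number left 360 genes past the test in place of 578, or 2.88% of those tested, and again 0 of the 7, with 1 at an unadjusted p under 0.05. With miR-376a*A against control 0 of the 8 passed limma's test, ROR1 included, beside 3.33% of all genes, and WNT5A and FZD7 were the 2 with an unadjusted p under 0.05. Weighting the arrays by quality, 2 of 8 passed there, WNT5A and FZD7, beside 18.5% of all genes. Between the 2 forms 0 of the 7 other genes passed by limma, beside 2.63% of all genes, and 0 had an unadjusted p under 0.05. Of the 16 probe sets of genes other than ROR1, 203706_s_at of FZD7 was the 1 that passed with miR-376a*G against control, beside 3.44% of all probe sets. None of the 16 passed limma's test in the other comparisons, beside 2.49% and 1.84% of all probe sets. An unadjusted p under 0.05 was reached there by 5 with miR-376a*A against control and by 0 between the forms. The shares of all genes and of all probe sets under this unadjusted level are not given here. The counts at that level therefore show no excess among these genes.

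The 7 genes other than ROR1 had a median log2 difference of 0.06 with miR-376a*G against control, 0.16 with miR-376a*A against control and 0.09 between the forms. Over all genes it was 0.01, 0.01 and 0.00. Both comparisons against control share the same 3 control arrays. Arrays did not overlap for 2 of the 7 genes other than ROR1 with miR-376a*G against control (WNT5A and WNT5B), beside 21.7% of all genes. They did not overlap for 2 of 8 with miR-376a*A against control (WNT5A and FZD7), beside 20.5%, and for 1 of the 7 between the forms (WNT5A), beside 29.5%.

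**Figure D4:**
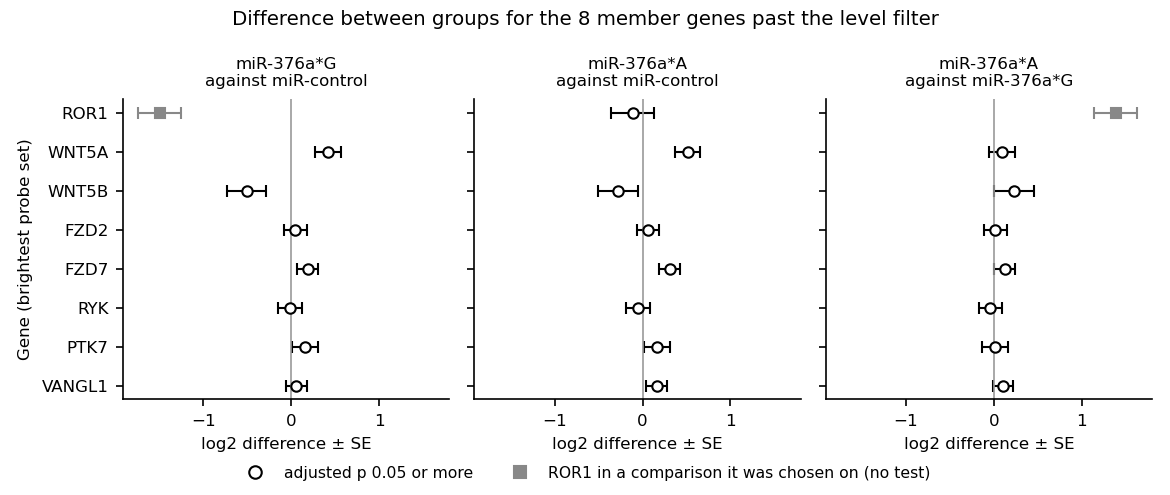
Log2 difference ± SE (horizontal axis) of 8 genes by their brightest probe set (vertical axis) in the 3 comparisons; open circles did not pass limma's adjusted p of 0.05 over all genes, and grey squares are ROR1 in the comparisons it was chosen on, with no test. ROR1 stands at -1.50 with miR-376a*G against control and at 1.38 between the forms, and the other genes lie between -0.51 and 0.51.

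Of 119 further genes of the Wnt pathways, set out in 5 lists, 85 were tested. With miR-376a*G against control 3 of these passed limma's test (3.53%, beside 4.62% of all genes), with miR-376a*A against control 2 (2.35%, beside 3.33%) and between the forms 2 (2.35%, beside 2.63%). Most tested genes of the pathway therefore did not pass in any comparison.

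Among 12 other ligands, secretion factors and ligand-binding proteins, CTHRC1, a secreted protein that binds WNT5A-receptor complexes, rose with both forms. From 255 ± 40.5 (SD, n = 3) in control cells, its signal went to 399 ± 0.767 under miR-376a*A and 385 ± 16.8 under miR-376a*G. The log2 changes were 0.61 and 0.55 (SE 0.11 each, limma adjusted p = 0.0123 and 0.0182). Leaving out any array of the treated group ended the call, with limma adjusted p of 0.0689 to 0.0748 for miR-376a*A and 0.0564 to 0.0938 for miR-376a*G, as did the replicate block for miR-376a*G (0.0523). In all, 4 of 21 alternatives ended the call for miR-376a*A and 5 that for miR-376a*G, with limma adjusted p up to 0.0802 and 0.120. Without control replicate 1 the changes were 0.54 and 0.48 (limma adjusted p = 0.00227 and 0.00414).

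DKK1, a secreted inhibitor of the LRP co-receptors, was lower under miR-376a*A than miR-376a*G (-0.32, SE 0.06, limma adjusted p = 0.0175) and than in control cells (-0.26, SE 0.06, limma adjusted p = 0.0455). Control arrays averaged 2074 ± 468 (SD, n = 3), those of miR-376a*A 1631 ± 157 and those of miR-376a*G 1947 ± 35.0. Without quantile normalization of the arrays the differences were about as large, -0.26 and -0.33, but did not pass (limma adjusted p = 0.673 and 0.353). Both calls also ended when any array of miR-376a*A or miR-376a*G was left out (limma adjusted p = 0.0541 to 0.182). The call against control ended too without control replicate 2 or 3 (limma adjusted p = 0.0659 and 0.110). That between the forms ended when limma was run without an intensity trend (limma adjusted p = 0.116). Of 21 alternatives, 16 ended the call against control and 9 that between the forms. WLS, which carries Wnt proteins to the cell surface, lay at 0.49 and 0.35 against control without passing.

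None of 7 other Frizzled, LRP and co-receptor genes passed limma's test with all arrays. FZD5 lay at -0.56 with miR-376a*G against control and at 0.78 between the forms (limma adjusted p = 0.147 and 0.0677). Without control replicate 1 both differences passed, at -0.81 and 0.78 (limma adjusted p = 0.000831 and 0.000487). Of all genes, 17.3% and 9.87% passed without that array. The other 6 genes, FZD1, FZD3, FZD4, FZD6, LRP6 and MCAM, lay between -0.16 and 0.41 in the 3 comparisons.

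Of 20 planar cell polarity genes 1 passed with miR-376a*G against control, and 0 in the other 2 comparisons. PRICKLE2, a cytoplasmic partner of the VANGL proteins, fell from a signal of 270 ± 5.48 to 172 ± 7.36 (SD, n = 3; log2 -0.64, SE 0.10, limma adjusted p = 0.00552). This call held in 20 of 21 alternatives, and the highest limma adjusted p among them was 0.0558. PRICKLE2 stood at 236 ± 11.2 with miR-376a*A, between the other groups, where the difference from control did not pass (-0.20, limma adjusted p = 0.378). VANGL2 lay at 0.28 with miR-376a*G and 0.19 with miR-376a*A against control, and the Dishevelled genes DVL1, DVL2 and DVL3 between -0.14 and 0.13, none past the test.

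Among 25 noncanonical effectors MAP2K4, a kinase that activates JNK, was lower with miR-376a*G, at 174 ± 7.32 against 244 ± 38.1 in control cells (SD, n = 3; log2 -0.47, SE 0.11, limma adjusted p = 0.0371). This was not a firm call: 14 of 21 alternatives ended it, the replicate block (limma adjusted p = 0.0869) and the removal of any array but control replicate 1 among them (0.0656 to 0.149). Its second probe set gave -0.36 without passing. None of the 25 passed with miR-376a*A or between the forms.

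Of 21 beta-catenin pathway genes 0 passed against control with either form, by limma. Between the forms BCL9L, a coactivator of beta-catenin, was higher under miR-376a*A, at 109 ± 12.4 (SD, n = 3) against 55.9 ± 6.59 (log2 0.79, SE 0.18, limma adjusted p = 0.0456). The call was lost without any 1 of the 6 arrays it compares (limma adjusted p = 0.0959 to 0.212), and a second probe set gave 0.31. More genes passed in all lists together without control replicate 1, as over all genes (17.3% with miR-376a*G and 13.5% with miR-376a*A against control). With miR-376a*G, 1 of 12 in the ligand list, 3 of 7 in the receptor list, 2 of 20 in the polarity list, 4 of 25 in the effector list and 7 of 21 in the beta-catenin list then passed. With miR-376a*A the counts were 4 of 12, 3 of 7, 2 of 20, 6 of 25 and 3 of 21.

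**Figure D5:**
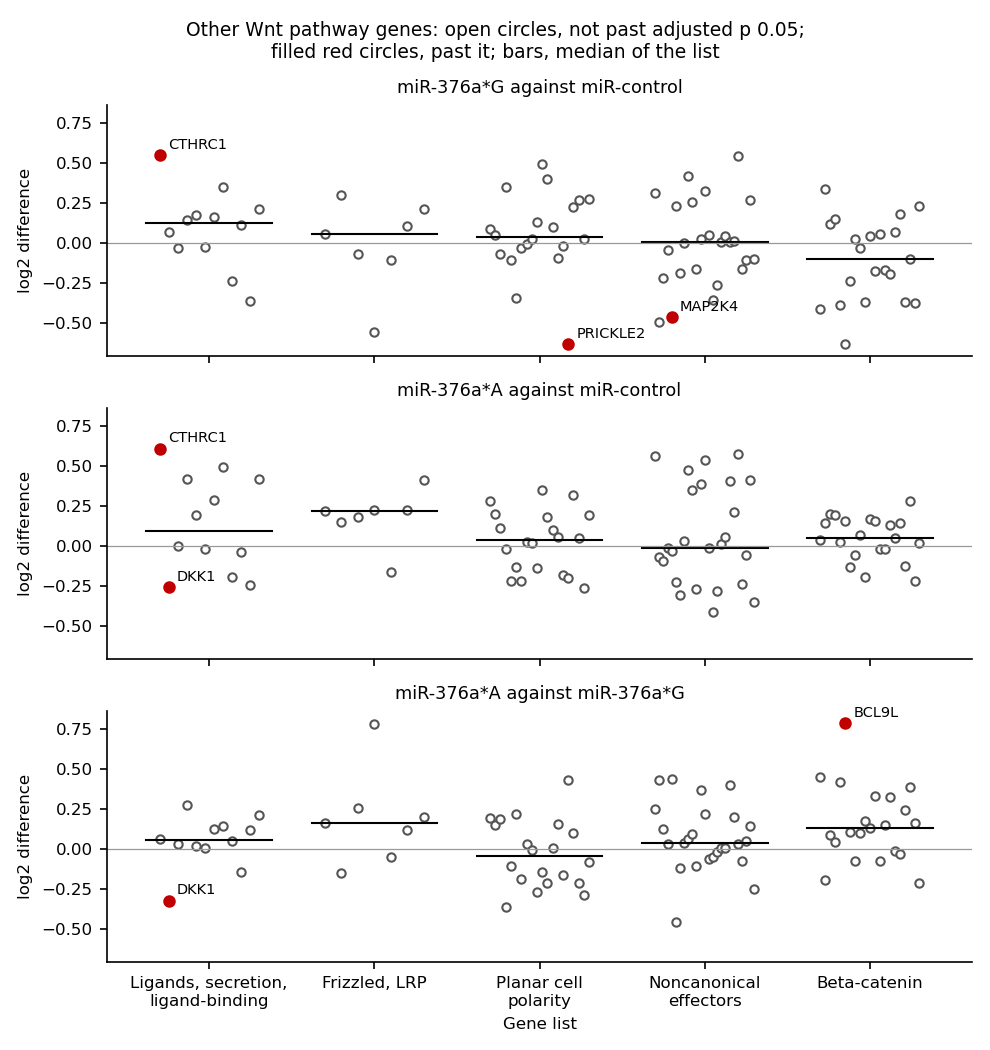
Log2 difference (vertical axis) of 85 other Wnt pathway genes in 5 lists (horizontal axis, genes of a list side by side), 1 panel per comparison; filled circles passed limma's adjusted p of 0.05 over all genes and bars are list medians. The points past the test are CTHRC1, PRICKLE2 and MAP2K4 with miR-376a*G, CTHRC1 and DKK1 with miR-376a*A, and DKK1 and BCL9L between the forms.

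The genes whose log2 values ran most like the brightest ROR1 probe set over the 9 arrays were FCHSD2, an endocytic adaptor (Pearson r = 0.992), SEC22B, a vesicle SNARE (0.991), PTPRG, a receptor tyrosine phosphatase (0.978), the mitochondrial peptidase XPNPEP3 (0.976) and PRRC1 (0.975). They were the top 5 by this measure among the 12495 genes compared. The 3 miR-376a*G arrays lie apart in ROR1, so such an r mostly reflects a low level in that group. Against control these genes lay at -1.11, -0.94, -0.94, -0.78 and -0.91 with miR-376a*G, and at -0.17, -0.07, -0.08, -0.13 and -0.05 with miR-376a*A.

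Some markers of other cell types moved with the groups. Of 4 neuronal markers tested, SNAP25 rose by 1.12 under miR-376a*A and 0.94 under miR-376a*G, SYT1 fell under miR-376a*G (-1.10), and the dim STMN2 rose with both (0.62 each), with limma adjusted p of at most 0.0412. The STMN2 calls held in 9 of 21 alternatives each. The summed signal of the 5 neuronal markers was 666 to 845 in control cells, 941 to 1006 under miR-376a*A and 593 to 765 under miR-376a*G, while GAD1 was at 2.44 to 11.3 on all arrays. The summed signal of the 4 endothelial markers was 156 to 205 in control cells, 129 to 148 under miR-376a*A and 111 to 145 under miR-376a*G, while 0 of the 2 tested passed limma's test in any comparison (PECAM1 with miR-376a*G was the 1 at an unadjusted p under 0.05). The part of these markers in the differences of the Wnt genes was not tested. In such bulk RNA, fewer cells of a type and less RNA per cell cannot be told apart.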

How the data were processed

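Total RNA of 9 samples of transfected cells was labelled with Biotin-ULS and hybridised to Affymetrix arrays, per the labels' protocols. The intensities deposited by the authors are linear signals per probe set. Array means after trimming 2% at each end lay between 100.01 and 100.013, which shows a common scaling before deposit. The submitters' processing notes list GCOS 1.4.0.036. For background removal and summarisation the sources used here give no method. Depth has no meaning for arrays, where the 3 arrays per group limit the precision. From these signals log2(signal + 16) was computed and quantile normalized, so folds are understated for dim genes. Gene names come from GEO's platform annotation, leaving out probe sets with several genes. After the filter (a mean of 5.17 on the log2 scale) the brightest probe set stood for a gene. limma 3.58.1 in R 4.3.3 (lmFit, eBayes with an intensity trend) was fitted to 3 groups sharing the spread, with Benjamini-Hochberg adjustment over all 12505 genes, or over 27338 probe sets where so stated, and a threshold of 0.05. An exact test of 3 against 3 arrays cannot give a p below 0.1. The fit was tested on simulated data.

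Named are all members, list genes past the threshold (up to 4 per list and comparison, plus some that did not pass, chosen after their values were seen) and the 5 genes most like ROR1. The members and lists were chosen with earlier results of these data known. Deviations of same-numbered arrays of miR-376a*G and control had r of 0.125 to 0.187 for the 3 pairs, all over 0.1. Blocked values are therefore given where they change a call. A pairing is not established, since miR-376a*G replicate 2 with control replicate 3 reached 0.140. In the other comparisons no same-numbered pair was over 0.1, while miR-376a*A replicate 3 with control replicate 1 reached 0.371. The labels call the replicates biological without naming separate cultures or days. Gene coordinates are not given, since the files name no build.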

Additional observations from a re-analysis of the deposited data

How the results depend on the processing

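Over 21 alternatives, 10 of the 504 values of the 8 tested genes passed the threshold anew (WNT5A and FZD7 against control) and 21 changed sign. The cause was not tested. Calls of ROR1 are left out for these genes, since it was chosen on 2 of the comparisons. For all genes, in the order miR-376a*G against control, miR-376a*A against control, miR-376a*A against miR-376a*G, the main counts were 578, 417 and 329. Testing every probe set gave 941, 680 and 502, fitting only the 6 arrays compared 204, 156 and 1292, and array weights 2427, 2315 and 1656. The replicate block gave 360, 292 and 223, with 0 of the 7 genes other than ROR1 past the threshold each time. Leaving out 1 array gave 228 to 2153, 177 to 1676 and 144 to 1228, the highest each time without control replicate 1. Of the 7 genes other than ROR1, 0 were past the threshold with all arrays in each comparison, beside 4.62%, 3.33% and 2.63% of all genes. Without 1 array the counts were 0 to 2, 0 to 2 and 0. The 2 came each time without control replicate 1, where 17.3% and 13.5% of all genes passed. Averaging probe sets gave 1, 1 and 0, beside 5.23%, 3.67% and 2.93% of all genes. Array weights gave 2, 2 and 0, beside 19.4%, 18.5% and 13.2%. Changes of sign were limited to values that had not passed. Without 1 array, ROR1 (232060_at) ran from -0.39 to 0.14 with miR-376a*A against control. For 211057_at the ranges were -0.00054 to 0.17 with miR-376a*G, -0.086 to 0.18 with miR-376a*A and -0.18 to 0.084 between the forms, with -0.061 without normalization and -0.13 with array weights for miR-376a*A. RYK ran from -0.16 to 0.096 with miR-376a*G (0.019 without normalization, 0.082 with median centring) and -0.195 to 0.057 with miR-376a*A (0.038 with median centring). FZD2 ran from -0.076 to 0.17, -0.060 to 0.18 and -0.015 to 0.050 in the 3 comparisons, and averaging probe sets gave -0.015, -0.023 and -0.0084. VANGL1 ran from -0.023 to 0.12 with miR-376a*G. PTK7 ran from -0.089 to 0.10 between the forms (-0.0032 without normalization), and averaging gave WNT5B -0.00058 there. Dim probe sets such as that of ROR2 limit what these arrays can show.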
